A study of Mus musculus with 5 samples.

Results

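Transcripts of GABA and glycine transmission were followed in the spinal cord of mice with and without a knockout of Lhx1os, a long non-coding RNA gene. The set comprised 27 of the 55471 genes in the count table, taken by name for their part in GABA or glycine transmission. It held 12 subunits of the GABA-A receptor and 5 of the glycine receptor, both GABA-B receptor subunits, both GABA-synthesising enzymes, the shared vesicular transporter Slc32a1, 3 plasma membrane transporters, the GABA-degrading enzyme Abat and the postsynaptic scaffold Gphn. It does not cover every GABA-A receptor subunit, and shares among subunits below are shares of the named genes only. Of the 27 genes, 25 had enough counts to be tested.

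The libraries were 3 from wild type (WT) and 2 from Lhx1os -/- (KO) mice, all male C57BL/6J, resting, aged 3 months. Per the labels' protocols, Cas9 and 1 guide RNA cut the second Lhx1os exon in fertilised eggs, and a donor oligonucleotide placed a synthetic polyadenylation signal and MAZ elements there to end transcription early. The allele is therefore not restricted to a cell type. PolyA RNA came from powdered whole tissue, so that fewer cells of a type and less RNA per cell cannot be told apart. Lhx1os itself was counted 56, 66 and 51 times in WT and 13 and 11 times in KO.

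GABA and glycine are the fast inhibitory transmitters of the spinal cord. Many spinal inhibitory neurons release both, because the vesicular transporter Slc32a1 loads either into the same vesicles. GABA is made from glutamate by Gad1 and Gad2, whereas a terminal becomes glycinergic by taking glycine up through Slc6a5. Both act on chloride channels made of 5 subunits, which gephyrin (Gphn) holds opposite the terminal, and GABA also acts on G protein-coupled GABA-B receptors. Astrocytes clear the transmitters, glycine chiefly through Slc6a9 and GABA in part through Slc6a11.

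The promoter windows of 4 members are given first, as regulatory context for the pairs of genes that the comparisons below set side by side. Slc6a5 and Gad1 mark the glycinergic and the GABAergic phenotype of a terminal, and Gabra4 and Gabrb1 begin head to head on chromosome 5, with the 5′ ends of their RefSeq transcripts 387 bases apart and overlapping. The sequences are from RefSeq on GRCm38.p6, where 24 of the 27 genes had a window, and run 5′ to 3′ on each gene's strand from 250 bases before to 50 bases after the start. Capitals mark matches to the GC box GGGCGG or the TATA box TATAAA on either strand.
Slc6a5, chr7:49910049-49910348, plus strand: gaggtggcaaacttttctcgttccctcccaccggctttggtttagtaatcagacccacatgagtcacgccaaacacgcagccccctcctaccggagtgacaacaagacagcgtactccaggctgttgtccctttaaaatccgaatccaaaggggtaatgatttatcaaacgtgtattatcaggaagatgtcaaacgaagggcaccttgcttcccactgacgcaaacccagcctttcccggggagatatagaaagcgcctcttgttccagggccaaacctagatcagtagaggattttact
Gad1, chr2:70561879-70562178, plus strand: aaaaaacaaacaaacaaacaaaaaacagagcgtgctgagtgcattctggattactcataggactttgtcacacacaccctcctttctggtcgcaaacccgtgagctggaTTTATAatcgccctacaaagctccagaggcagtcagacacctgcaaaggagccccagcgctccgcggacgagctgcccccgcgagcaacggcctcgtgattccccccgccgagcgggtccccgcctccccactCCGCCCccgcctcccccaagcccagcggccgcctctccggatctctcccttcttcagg
Gabra4, chr5:71658259-71658558, minus strand: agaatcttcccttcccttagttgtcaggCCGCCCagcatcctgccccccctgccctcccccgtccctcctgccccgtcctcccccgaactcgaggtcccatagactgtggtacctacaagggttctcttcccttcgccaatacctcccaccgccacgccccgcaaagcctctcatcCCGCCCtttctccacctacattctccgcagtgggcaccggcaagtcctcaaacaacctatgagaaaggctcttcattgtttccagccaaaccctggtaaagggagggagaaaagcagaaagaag
Gabrb1, chr5:71657671-71657970, plus strand: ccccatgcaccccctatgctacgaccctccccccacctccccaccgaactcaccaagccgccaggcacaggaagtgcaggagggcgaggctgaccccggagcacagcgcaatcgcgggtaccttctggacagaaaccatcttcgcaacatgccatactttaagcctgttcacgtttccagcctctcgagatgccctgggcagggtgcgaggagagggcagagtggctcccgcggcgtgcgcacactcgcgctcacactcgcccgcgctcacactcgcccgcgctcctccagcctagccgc
The Gabra4 window held 2 GC box matches and the Gad1 window 1, together with 1 TATA box match, while the Slc6a5 and Gabrb1 windows held neither motif. Of all 32851 windows of 300 bases, 35.7% held the GC box and 13.6% the TATA box, and the motifs do not overlap each other. The Gabrb1 window had 25 CpG dinucleotides, against 21 for Gad1 and 12 each for Gabra4 and Slc6a5. Gad1 RNA can also start further upstream, since its GENCODE model (chromosome 2, 70553072 to 70602014) reaches beyond this window.

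The libraries held 15973063 to 19437533 counts. Their tissue markers were those of spinal cord: the 9 listed rostral Hox genes summed to 139.8 to 209.8 CPM (counts scaled to library size) and the 9 motor neuron genes to 515 to 731 CPM. WT replicate 2 stood apart in sensory ganglion markers, at 46.8 CPM summed over 8 genes, against 2.82 to 3.81 CPM in the other 4 libraries. Without it 0 members were called, but the unadjusted values moved. Gabra2, Gabbr2, Glra1 and Slc32a1 then had an unadjusted p under 0.05 (edgeR), as had 1626 of the 15908 genes tested. With all 5 libraries Glra1 was the only such member. No marker on the pan-neuronal, astrocyte, oligodendrocyte and microglia lists was at 0. KO tissue had a pan-neuronal score above that of WT by 0.09 on the log2 scale, and that score did not overlap between the genotypes. Nor did the oligodendrocyte precursor score, lower in KO (−0.16), or that of cerebellum and hindbrain markers, higher in KO (0.14). This last score rests on 5 tested genes: Calb2 and Grm4 averaged 179 and 43.0 CPM, but Cbln3, Neurod1 and Barhl1 only 1.16, 1.37 and 0.774 CPM. Pcp2 and Fat2 of that list averaged 0.106 and 0.158 CPM and were not tested. Whether KO tissue held more cerebellum or hindbrain was not tested. Because the pan-neuronal score separates the genotypes, its part and that of genotype cannot be told apart in a fit that holds both. Fits with the pan-neuronal, Hox or meningeal score as a covariate moved several members, and the larger shifts are given beside the member or among the alternatives.

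None of the inhibitory transmission genes passed the test between genotypes. With edgeR's quasi-likelihood test adjusted over all genes, 0 of 25 were called at an adjusted p under 0.05, where 3 of 16052 genes (0.0187%) were called in all. DESeq2 and limma-voom also called 0 of the 25. The targeted gene Lhx1os, with a log2 fold change of −2.13 (SE 0.28), did not pass in edgeR either (adjusted p = 0.0589). At an unadjusted p under 0.05 there was 1 member, Glra1, which was higher in KO. That compares with 7.57% of all genes tested, 3.49% as higher in KO and 4.07% as lower. Adjusted p-values of the members lay between 0.640 and 0.995. Of the 25 genes, 16 had log2 fold changes above 0 and 9 below, and 51.3% of all genes were above 0. The median log2 fold change was 0.01, against 0.00 over all genes, and the median absolute log2 fold change was 0.07, against 0.10 over all genes. Groups did not overlap for 2 tested members, Glra1 and Slc32a1, both higher in KO, against 24.9% of all genes (12.9% as higher in KO). For 16 of the 25 genes the log2 fold change was smaller than its own standard error (SE), and the median SE was 0.09.

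**Figure D1:**
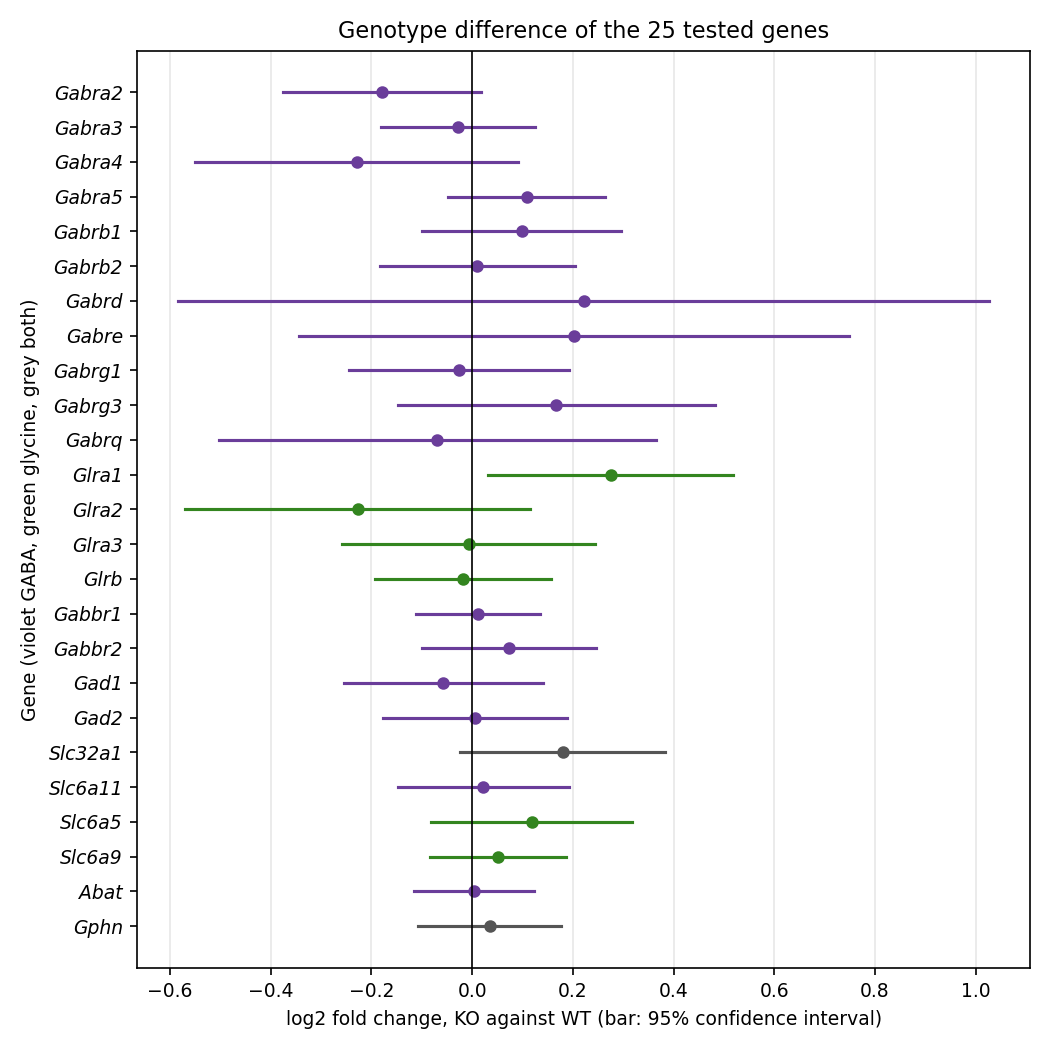
Log2 fold change of the 25 tested genes in KO against WT, with 95% confidence intervals from edgeR's quasi-likelihood fit (3 WT and 2 KO libraries), grouped by role. The interval of Glra1 alone leaves out 0 before adjustment, and the widest belongs to Gabrd, a gene of 12 to 25 counts.

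Among the genes of the inhibitory terminal, the levels of Gad1 and Gad2 overlapped between the genotypes. Gad1, which makes most of the GABA held in the cell, measured 169, 204 and 194 CPM in WT and 169 and 194 CPM in KO. Replicate 1 of each genotype was low and the KO values lay inside the WT range. Its log2 fold change was −0.06 (SE 0.09; 95% interval −0.25 to 0.14; adjusted p = 0.899, edgeR). Gad2, the isoform tied to vesicles, measured 112, 126 and 111 CPM in WT and 108 and 125 CPM in KO, again with overlapping groups (0.01, SE 0.08; adjusted p = 0.994, edgeR). Per kilobase of exon, Gad1 took 55.2% ± 1.40 of the summed level of Gad1 and Gad2 (SD, n = 5 libraries). The split depends on the gene length used: the share of Gad2 was 44.8% with the union of exons and 28.2% with the longest transcript.

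Slc32a1, the vesicular transporter shared by GABA and glycine, measured 143, 153 and 120 CPM in WT and 156 and 158 CPM in KO. Both KO libraries lay above all 3 WT libraries, and WT replicate 3 was the low one. WT averaged 138 ± 17.1 CPM (SD, n = 3), and KO averaged 157 ± 1.80 CPM (SD, n = 2). The log2 fold change of 0.18 (SE 0.09; 95% interval −0.02 to 0.38) did not pass (adjusted p = 0.706, edgeR), and it was 0.08 without WT replicate 3. With the pan-neuronal score as a covariate it was 0.03. Other fits gave larger values: 0.20 without WT replicate 1, 0.26 without WT replicate 2 (adjusted p = 0.381, edgeR) and 0.24 with the Hox score (adjusted p = 0.545, edgeR). None of these passed, and the sign held in all 15 alternatives. The exons of Slc32a1 share 24.9% of their bases with Gm14205 on the opposite strand, and Gm14205 itself was counted at 0.0348 CPM.

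Slc6a5, the neuronal glycine transporter GlyT2, was the most abundant gene of the terminal. It measured 535, 482 and 418 CPM in WT and 525 and 513 CPM in KO, with WT replicate 1 highest and WT replicate 3 lowest, so that WT enclosed KO. The log2 fold change was 0.12 (SE 0.09; 95% interval −0.08 to 0.32; adjusted p = 0.780, edgeR), and with the pan-neuronal score as a covariate −0.13. It was 0.21 without WT replicate 1, 0.03 without WT replicate 3 and 0.02 with the meningeal score. Per kilobase its level of 68.7 ± 6.54 CPM (SD, n = 5) was above that of Slc32a1 at 52.1 ± 5.65 CPM, and the library ranges did not overlap.

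**Figure D2:**
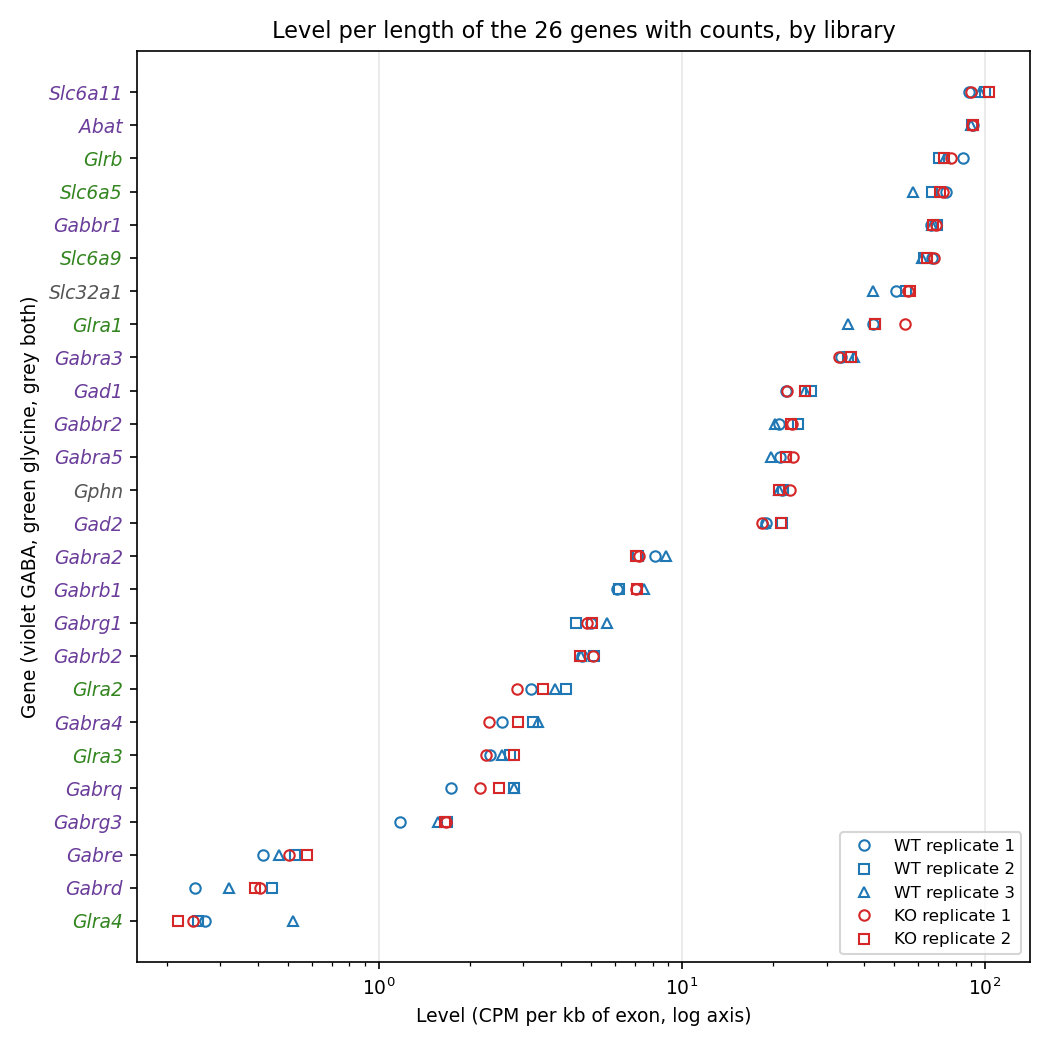
Level of each gene in CPM per kilobase of exon (log axis), with 1 symbol per library. Slc6a11 and Abat stand highest, with means of 95.7 and 90.7, and the lowest genes with counts, Gabre, Gabrd and Glra4, lie under 1, while the symbols of WT and KO intermingle in most rows; Gabra6, at 0 counts, is not drawn.

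The alpha subunits of the GABA-A receptor carry much of its pharmacology, and alpha 3 dominated among the 5 alpha genes of the set. Per kilobase, Gabra3 stood at 35.0 ± 1.73 CPM, Gabra5 at 21.6 ± 1.30, Gabra2 at 7.69 ± 0.796 and Gabra4 at 2.86 ± 0.439 (SD, n = 5). Their library ranges did not touch, and Gabra3 made up 52.1% ± 1.39 of the sum. Gabra6, known from cerebellar granule cells, had 0 counts in every library, which allows at most 0.153 to 0.188 CPM per library at a floor of 3 counts, counting error only.

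Gabra2 had the smallest p of the GABA-A subunits. It measured 62.3, 54.9 and 67.8 CPM in WT and 55.02 and 53.8 CPM in KO, and only WT replicate 2 lay in the KO range. Its log2 fold change was −0.18 (SE 0.09; 95% interval −0.38 to 0.02; adjusted p = 0.692, edgeR), while it was −0.26 without WT replicate 2 and −0.11 without WT replicate 3. Gabra3 measured 132, 139 and 145 CPM in WT and 129 and 142 CPM in KO (−0.03, SE 0.07), and Gabra5 measured 62.6, 65.7 and 58.7 CPM in WT and 69.1 and 65.5 CPM in KO (0.11, SE 0.07). In both the groups overlapped. Gabra4, an alpha subunit of extrasynaptic receptors, measured 15.5, 19.6 and 20.4 CPM in WT and 14.0 and 17.6 CPM in KO, with replicate 1 of each genotype lowest (−0.23, SE 0.14).

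Of the beta, gamma and rarer subunits, none passed the test. Beta subunits take part in forming the GABA site, and gamma subunits anchor receptors at synapses. Gabrb1 measured 84.9, 85.8 and 104 CPM in WT and 97.8 and 98.1 CPM in KO (0.10, SE 0.09), and Gabrb2 stayed between 29.3 and 32.5 CPM in all 5 libraries (0.01, SE 0.09). Gabrg1, a subunit also known from glia, ranged from 35.3 to 44.4 CPM (−0.03, SE 0.10). Gabrg3 was lowest in WT replicate 1, at 14.0 CPM, and between 18.8 and 20.02 CPM in the other 4 libraries (0.17, SE 0.14). Gabrq ranged from 9.28 CPM in WT replicate 1 to 14.97 CPM in WT replicate 2 (−0.07, SE 0.19). Gabre had 33 to 49 counts a library (1.96 to 2.75 CPM; 0.20, SE 0.25), and Gabrd, the delta subunit of tonic receptors, 12 to 25 (0.714 to 1.28 CPM; 0.22, SE 0.36), so their intervals were wide. Gabrb1, Gabrg3 and Gabrq depended on the fit. With the pan-neuronal score as a covariate their log2 fold changes were 0.30, 0.49 and 0.50, each at an unadjusted p under 0.05, and none passed (adjusted p = 0.989, edgeR). Gabrd was at 0.51 in that fit. With the meningeal score Gabrg3 was at 0.33 (adjusted p = 0.730, edgeR), and without WT replicate 1 at 0.03. Gabrb1 was at 0.20 without WT replicate 3 (adjusted p = 0.894, edgeR) and at 0.05 without WT replicate 1 or WT replicate 2.

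Subunit genes that are neighbours in the genome differed widely in level. In the group on chromosome 5 (GRCm38), Gabrg1 (70751047 to 70842617), Gabra2 (70957597 to 71095849), Gabra4 (71569749 to 71658308) and Gabrb1 (71658113 to 72149037) had levels of 5.005, 7.69, 2.86 and 6.80 CPM per kilobase. Gabra4 and Gabrb1, whose start windows are printed above, overlap by 196 bases and share 46 exon bases on opposite strands, yet Gabrb1 was the higher in every library. In the X chromosome group, Gabra3 (72432681 to 72656848) stood at 35.0 CPM per kilobase between Gabre at 0.499 and Gabrq at 2.40. On chromosome 7, Gabra5 (57407672 to 57510059) at 21.6 lies 20.5 kb from Gabrg3 at 1.55, and on chromosome 11 Gabrb2 at 4.82 lies 98.7 kb from Gabra6, which had no counts.

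The metabotropic GABA-B receptor works as a dimer of Gabbr1, which binds GABA, and Gabbr2, which couples to the G protein. Gabbr1 was the steadiest receptor gene, at 515, 541 and 521 CPM in WT and 534 and 525 CPM in KO (0.01, SE 0.06; 95% interval −0.11 to 0.13). Gabbr2 measured 140.2, 162 and 136 CPM in WT and 155 and 153 CPM in KO (0.07, SE 0.08). KO lay within WT for both genes, and Gabbr1 took 75.3% ± 1.01 of their summed level per kilobase (SD, n = 5). With the longest transcript as gene length its share was 79.5%.

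Adult glycine receptors combine alpha 1 (Glra1) with the gephyrin-binding beta subunit (Glrb), whereas alpha 2 (Glra2) prevails before birth. Glra1 gave the smallest p of the 25 tested genes. Its exons share 5.84% of their bases with Gm12236 on the opposite strand, which had no counts. It measured 102.76, 104.41 and 84.96 CPM in WT and 131.44 and 104.45 CPM in KO. The groups did not overlap, but KO replicate 2 sat almost level with WT replicate 2, and KO replicate 1 stood alone at the top. WT averaged 97.4 ± 10.8 CPM (SD, n = 3), and KO averaged 117.9 ± 19.1 CPM (SD, n = 2). Its log2 fold change of 0.28 (SE 0.11; 95% interval 0.03 to 0.52; unadjusted p = 0.0302) did not pass over all genes (adjusted p = 0.640, edgeR's quasi-likelihood test). Leaving out KO replicate 1 gave 0.10, leaving out KO replicate 2 gave 0.43, and leaving out WT replicate 3 gave 0.18. With the pan-neuronal score as a covariate it was 0.02, and with the Hox score 0.36 (adjusted p = 0.276, edgeR). The motor neuron genes, from cells that carry many glycine receptors, summed to 731 CPM in KO replicate 1 and 600 CPM in KO replicate 2. In WT replicates 1, 2 and 3 they summed to 676, 536 and 515 CPM. KO replicate 1 was thus the highest of the 5 libraries and WT replicate 1 the next. The part of motor neuron content in the Glra1 values was not tested.

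The other glycine receptor genes showed no such order. Glrb measured 394, 328 and 344 CPM in WT and 360.1 and 342 CPM in KO (−0.02, SE 0.08; 95% interval −0.19 to 0.16; adjusted p = 0.974, edgeR), and its log2 fold change was −0.18 with the pan-neuronal score. Glra2 measured 9.996, 13.1 and 12.005 CPM in WT and 9.02 and 11.0 CPM in KO (−0.23, SE 0.15), and Glra3 ranged from 20.8 to 25.6 CPM (−0.01, SE 0.11). Both were lowest in KO replicate 1, where Glra1 was highest. Glra1 made up 87.1% ± 2.73 of the summed alpha level per kilobase (SD, n = 5), and its level relative to Glra2 ran from 9.23 to 13.4 in WT and was 19.02 and 12.4 in KO, with overlapping groups. Glra4 had 9, 10 and 17 counts in WT and 8 and 7 in KO. The KO counts were the lowest, but the gene had too few counts to be tested.

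A clearance gene and the breakdown gene were the most abundant of the set per kilobase. Slc6a11, the GABA transporter GAT3 of astrocytes, stood at 95.7 ± 6.32 CPM per kilobase and Abat, the GABA transaminase of mitochondria, at 90.7 ± 0.716 (SD, n = 5), and their ranges overlapped. Abat measured 710, 701 and 695 CPM in WT and 702 and 705 CPM in KO (0.00, SE 0.05; 95% interval −0.12 to 0.12). Slc6a11 measured 448, 507 and 486 CPM in WT and 455 and 521 CPM in KO, low in replicate 1 of each genotype (0.02, SE 0.08; 0.16 with the pan-neuronal score). Slc6a9, the glycine transporter GlyT1, measured 344, 323 and 318 CPM in WT and 349.9 and 331 CPM in KO (0.05, SE 0.06), with its highest WT and KO values in replicate 1. Slc6a9 shares 27.8% of its exon bases with Ccdc24 on the opposite strand, counted at 0.340 CPM, and 9.94% with Gm17114, counted at 0.0125 CPM. Gphn, the gephyrin scaffold of both receptor types, measured 80.3, 80.7 and 78.2 CPM in WT and 85.1 and 78.2 CPM in KO (0.03, SE 0.06; adjusted p = 0.914, edgeR). None of these 4 genes passed the test.

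**Figure D3:**
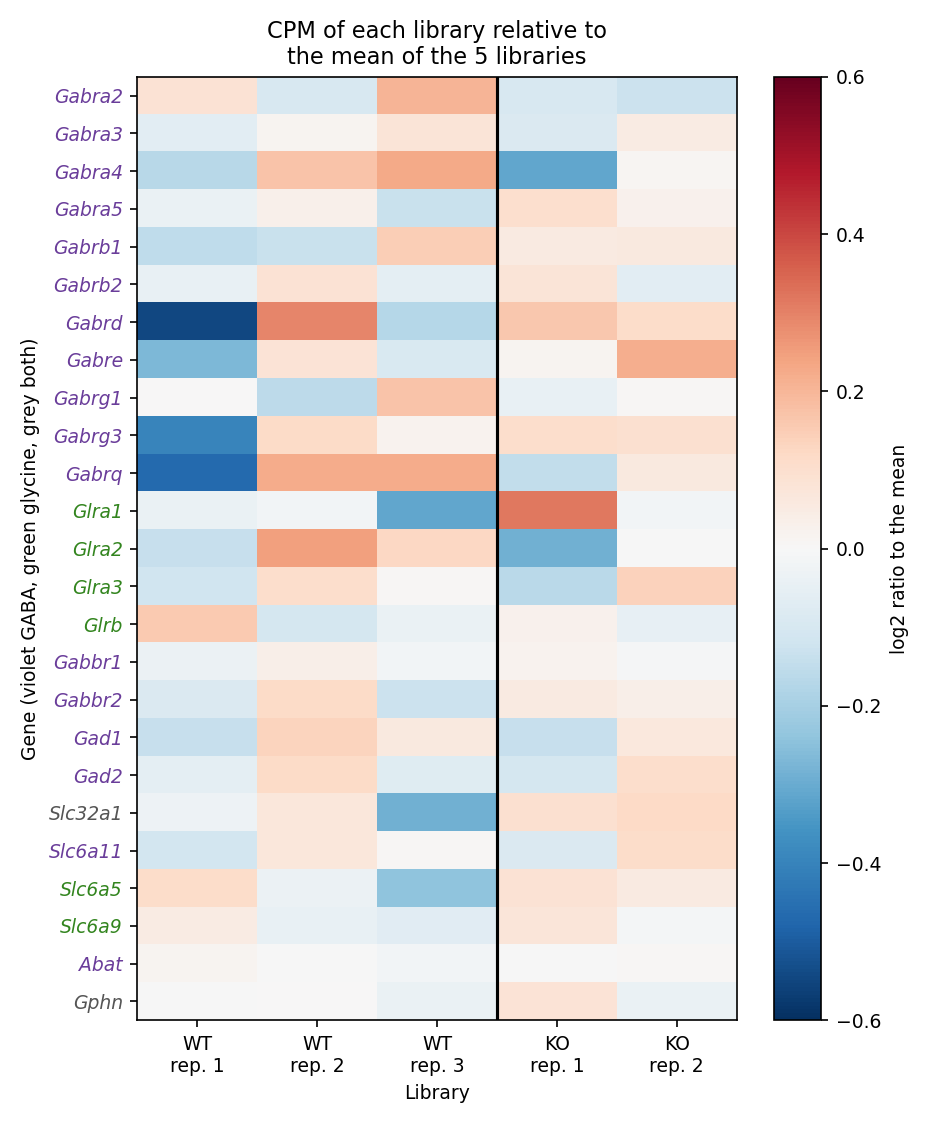
CPM of the 25 tested genes in each library relative to the mean of the 5 libraries (log2 colour scale from −0.6 to 0.6). No block of colour follows the genotype line, while Gad1, Slc6a11, Gabra4 and Glra2 are blue and Slc6a5 and Slc6a9 red in replicate 1 of both genotypes.

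The balance of glycine to GABA genes differed more between libraries of a genotype than between genotypes. For the terminal, the level per kilobase of Slc6a5 over that of Gad1 and Gad2 together was 1.81, 1.39 and 1.31 in WT and 1.80 and 1.53 in KO. WT replicate 1 and KO replicate 1 were high, and their 95% counting intervals (1.74 to 1.87 and 1.73 to 1.86) did not overlap those of the other 3 libraries. For uptake, Slc6a9 over Slc6a11 was 0.755, 0.626 and 0.643 in WT and 0.756 and 0.623 in KO. For receptor channels, the 5 glycine over the 12 GABA-A genes gave 1.57, 1.36 and 1.26 in WT and 1.57 and 1.37 in KO. The same pair of libraries was highest in all 3 ratios, and WT and KO overlapped in each. The means were 1.503 ± 0.265 in WT and 1.66 ± 0.193 in KO for the terminal, 0.674 ± 0.0701 and 0.690 ± 0.0939 for uptake, and 1.40 ± 0.159 and 1.47 ± 0.141 for the channels (SD, n = 3 and n = 2). With the longest transcript as gene length the terminal ratio averaged 0.939 in WT and 1.04 in KO, so its side of 1 depends on the length used. No test was made on these ratios, and the intervals cover counting error only.

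**Figure D4:**
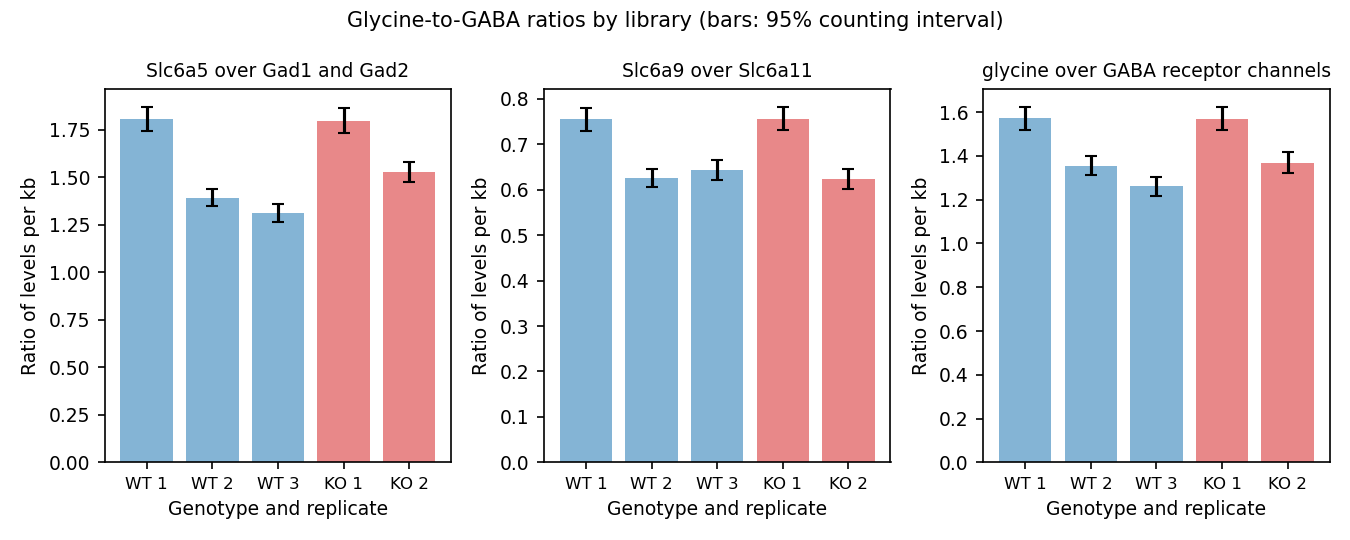
Ratio of glycine to GABA gene levels per kilobase in each library for the terminal (left), uptake (middle) and receptor channels (right), with 95% counting intervals as error bars. In all 3 panels the bars of WT replicate 1 and KO replicate 1 are the tallest and nearly equal.

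Several marker lists set the same pair of libraries apart as the glycine ratios did. The 9 motor neuron genes, all detected, summed to 676, 536 and 515 CPM in WT and 731 and 600 CPM in KO, highest in WT replicate 1 and KO replicate 1. Chat, which makes acetylcholine, stood at 37.2 and 41.8 CPM in WT replicate 1 and KO replicate 1, and at 25.5 to 30.0 CPM in the others. The 14 excitatory interneuron genes, none at 0, were lowest in those same libraries, with sums of 460.0, 558 and 514 CPM in WT and 469.7 and 502 CPM in KO. The 14 pan-neuronal genes had their highest sums there, at 13003 and 13188 CPM against 11381 to 12479 CPM in the other 3 libraries. Their score did not set that pair apart. Relative to the WT mean it was 0.060 in WT replicate 1, 0.106 in KO replicate 1 and 0.071 in KO replicate 2. Syt1 of that list was lowest in WT replicate 1, at 177 CPM. The 13 meningeal genes were lowest in WT replicate 1 and KO replicate 1, at 265 and 333 CPM against 358 to 632 CPM. So were the 8 Schwann cell genes, at 504 and 565 CPM against 687 to 812 CPM. All 13 meningeal genes also had log2 fold changes below 0 in KO against WT, where 51.3% of all genes tested were above 0. Their median was −0.45, and 0 were called. The meningeal score was lower in KO (−0.36), with overlapping groups. The 16 inhibitory interneuron identity genes did not follow the ratios, at 288, 316 and 284 CPM in WT and 294 and 313 CPM in KO, with Ptf1a at 0 counts. Caudal Hox genes did not follow them either, at 21.1, 16.04 and 48.5 CPM in WT and 19.8 and 83.4 CPM in KO. Whether the makeup of the dissected tissue has a part in the ratios was not tested.

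The wider inhibitory pathway was examined in 23 synaptic genes and 22 genes of supply and breakdown that could be tested, of which edgeR called 0. Among the synaptic organisers and receptor partners, 12 of 23 were higher and 11 lower, where 51.3% of all genes tested were higher. Their median log2 fold change was 0.01, and 2 had an unadjusted p under 0.05 (edgeR), against 7.57% of all genes. Nlgn2, the neuroligin of inhibitory synapses, measured 164, 187 and 152 CPM in WT and 195 and 191 CPM in KO (0.20, SE 0.08; adjusted p = 0.644, edgeR). Kctd12, an auxiliary subunit of GABA-B receptors, measured 63.9, 68.0 and 70.4 CPM in WT and 60.2 and 56.8 CPM in KO (−0.21, SE 0.07; adjusted p = 0.578, edgeR). Both were separate between the groups without passing, and so was Clptm1 (0.07, SE 0.06). Of all genes tested, 24.9% were separate between the groups. Gabarapl1 (0.01, SE 0.06), Trak2 (−0.05, SE 0.06) and Iqsec3 (0.08, SE 0.10) were the most abundant of the 23, each within an SE of 0. Next by p came Mdga1 (0.24, SE 0.18) and Lhfpl4 (0.10, SE 0.08), whose groups overlapped.

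Among genes that supply or degrade GABA and glycine, 7 of 22 were higher and 15 lower, where 51.3% of all genes tested were higher. Their median log2 fold change was −0.03, and 3 had an unadjusted p under 0.05 (edgeR), against 7.57% of all genes. Slc38a2, a sodium-coupled transporter of glutamine and other neutral amino acids, measured 374, 316 and 320 CPM in WT and 225 and 270.4 CPM in KO, with both KO libraries below all WT libraries. Its log2 fold change of −0.44 (SE 0.09) did not pass in edgeR (adjusted p = 0.270), while DESeq2 called it (adjusted p = 0.00202) and so did edgeR without the low count filter (adjusted p = 0.00140). Glul, the glutamine synthetase of astrocytes, measured 1896, 1876 and 1834 CPM in WT and 1725 and 1564 CPM in KO (−0.18, SE 0.06; adjusted p = 0.586, edgeR). Slc7a10, a transporter of small neutral amino acids including glycine, measured 98.1, 86.3 and 84.3 CPM in WT and 106 and 102 CPM in KO (0.22, SE 0.08; adjusted p = 0.586, edgeR). The 12 astrocyte markers summed to 8307 to 9247 CPM in WT and 8672 to 8863 CPM in KO, so the KO sums lay within WT. Single markers went both ways, with 4 of the 12 higher in KO, 8 lower and 0 called. Gjb6 was lower (−0.35, SE 0.06; adjusted p = 0.176, edgeR) and Sox9 higher (0.39, SE 0.09; adjusted p = 0.301, edgeR). Slc38a1 (0.01, SE 0.06) and Psat1 (−0.12, SE 0.07), an enzyme of serine synthesis, did not pass either.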

How the data were processed

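The authors deposited 1 table of whole-number counts for 5 libraries, unnormalized. The submitters' processing notes name GRCm38, STAR 2.5.2b, HTSeq, Trimmomatic and cutadapt. Neither the gene annotation nor the strandedness used by the counter is given in the sources consulted, so larger exon overlaps with a gene on the opposite strand are given beside the member. Gabra5 also shares 4.98% of its exon bases with Gm9962 and Gphn 3.92% with Gm48226. Libraries were made with a stranded polyA kit, per the labels' protocols. Groups came from the titles. Each library's description carries its own number, without saying whether it counts animals. If it does not, p-values may reflect technical spread between samples alone.

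Symbols, coordinates and exon lengths came from GENCODE M21 (55230 of 55471 identifiers matched). The filterByExpr step (10 counts, 15 in total) kept 16052 genes, which were scaled by TMM and tested with the quasi-likelihood F test of edgeR 4.0.16 (R 4.3.3) over all 5 libraries without covariates. Adjustment was by Benjamini-Hochberg over all genes, at 0.05. Biological variation (edgeR's common estimate) was 7.48%. CPM is TMM-scaled, and levels of different genes are CPM per kilobase of the union of exons. A score is the mean log2(CPM + 0.5) of the tested genes of a list. Counting intervals of ratios used Poisson variances at the 95% level. Libraries of a group differed beyond sampling noise (chi-square per degree of freedom 4.23 to 7.98).

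Members and gene lists were chosen with earlier results of these data known. All members are accounted for. Values in every library are given for members of smallest p or highest level in each role and for those whose groups do not overlap; of each wider pathway list the 4 genes of smallest p and the 4 most abundant are named, except 1 that is not reported here. Other members given in every library were chosen after their values were seen. The test was tried on simulated counts. Alternatives were DESeq2 1.42.0 and its size factors, limma-voom (3.58.1), other filters, robust dispersion, the replicate number as a block, 3 score covariates, each library left out, and the longest transcript as length.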

Additional observations from a re-analysis of the deposited data

How the results depend on the processing

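The count of 0 called members held in all 15 alternatives of the test, where the members' smallest adjusted p ranged from 0.276 to 0.989. Without either KO replicate, the KO arm is 1 library assumed to vary like WT, so those 2 fits say little about stability. The count of all called genes, 3, became 6 with DESeq2 size factors, 96 without the filter, 40 with DESeq2, 1 with limma-voom, 12 with robust dispersion, 0 with the Hox score, 8 with the meningeal score and 0 to 58 when 1 library was left out (58 without WT replicate 1, 1 without WT replicate 2, 10 without WT replicate 3, 0 without KO replicate 1). The wider pathway had 1 call, Slc38a2, with DESeq2 and without the filter. The replicate numbers are not stated to pair the libraries (correlation of deviations 0.057 for number 1 and 0.016 for number 2); with the replicate block edgeR called 25 genes and 0 members, and Gabrb1 stood at 0.20 (adjusted p = 0.610). The members' median log2 fold change was 0.029 with the replicate block, 0.057 with the pan-neuronal score, 0.021 with the Hox score, 0.024 with the meningeal score and 0.011 to 0.051 with 1 library left out. With the longest transcript as length, the glycine share was 49.3% in place of 60.8% for the terminal, 45.1% in place of 40.4% for uptake and 61.7% in place of 58.7% for channels, from the change of length alone. WT averaged 0.939 and KO 1.04 for Slc6a5 over Gad1 and Gad2 with that length, so whether the terminal ratio lies above 1 depends on it.

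Over the 15 alternative fits, 51 of the 374 log2 fold changes of members had a sign opposite to the main fit. None of these members had passed, and the cause was not tested. With the pan-neuronal score the log2 fold changes became 0.10 for Gabra3, 0.13 for Gabra4, −0.016 for Gabrb2, 0.092 for Gabrg1, 0.50 for Gabrq, 0.040 for Glra2, 0.16 for Glra3, 0.14 for Gad1, −0.13 for Slc6a5, −0.049 for Slc6a9, −0.017 for Abat and −0.016 for Gphn. With the replicate block they became 0.0062 for Gabra3, −0.015 for Gabrb2, 0.062 for Gabrg1, 0.064 for Gabrq, −0.028 for Gad2 and −0.0039 for Abat. With the meningeal score they became 0.017 for Gabra3, 0.0053 for Gabrg1, 0.19 for Gabrq, 0.053 for Glra3, 0.023 for Gad1 and −0.0053 for Abat. Without the filter they became −0.00080 for Gad2 and −0.0026 for Abat. Leaving out 1 library gave −0.099 to 0.036 for Gabra3, −0.064 to 0.078 for Gabrb2, −0.11 to 0.057 for Gabrg1, −0.26 to 0.044 for Gabrq, −0.0040 to 0.033 for Gabbr1, −0.17 to 0.13 for Glra3, −0.072 to 0.063 for Glrb, −0.16 to 0.037 for Gad1, −0.10 to 0.10 for Gad2, −0.081 to 0.12 for Slc6a11, −0.0080 to 0.011 for Abat and −0.031 to 0.093 for Gphn. Depth limits Gabrd, Gabre and Glra4, at 7 to 49 counts a library.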

Other observations

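The spread of the inhibitory genes over the 5 libraries was uneven. Slc6a5 varied by 9.53% (coefficient of variation of CPM), 8.73 times the 1.09% that counting alone gives, and Glra1 by 15.7%, 6.66 times its counting error. Abat, with the highest mean count of the set at 11931, varied by 0.790%, which is below its counting error of 0.916%. Of the 25 tested genes, 16 varied by more than 2 times their counting error and 3 by less than it. Gabrb2 (1.20 times) and Gphn (1.30 times) were close to counting error, while Slc6a11 (5.99 times), Glrb (5.52 times) and Slc32a1 (5.40 times) were not. The highest library exceeded the lowest by 1.02-fold for Abat, 1.05-fold for Gabbr1, 1.28-fold for Slc6a5, 1.55-fold for Glra1 and 1.61-fold for Gabrq.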
